A study of Saccharomyces cerevisiae with 18 samples.

Results

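The genes described here are the 7 histidine synthesis genes of Saccharomyces cerevisiae, HIS1 to HIS7, and GCN4, which encodes an activator of amino acid synthesis genes. They were chosen by name, each had 1 probe set, and together they are 8 of the 5363 genes tested among 5449 with a probe set. Total RNA was read on 18 Affymetrix arrays, 1 per sample, in 9 groups of 2. The groups cross 3 strains, a haploid labelled Mat alpha, a haploid labelled Mat a and a diploid, with 0%, 3% and 7% ethanol by volume. Every strain is described as ethanol tolerant, every culture grew in glucose-rich YPD in fermentors and was taken in mid-exponential phase, and the labels used here give no strain names, marker alleles or origin of the replicates. Where replicates were not separate cultures, the p-values below measure a technical spread.

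Histidine is made from phosphoribosyl pyrophosphate (PRPP) and ATP in a single linear pathway. In yeast the enzymes act in the order HIS1, HIS4, HIS6, HIS7, HIS3, HIS5 and HIS2, with HIS4 also catalysing the last steps. The pathway is a classic target of general amino acid control, in which Gcn4 binds upstream of many amino acid synthesis genes. Gcn4 itself is controlled mainly through translation of its mRNA and through breakdown of the protein. The arrays read GCN4 mRNA and hold no measure of the Gcn4 protein. HIS4 and HIS7 are also activated by Bas1 and Pho2, which drive the purine synthesis genes.

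The mating markers did not match one label. The alpha-factor gene MF(ALPHA)1 had median scaled signals of 4511, 4733 and 15.6 in the haploid labelled alpha, the haploid labelled a and the diploid. The summed signal of the 7 a-cell markers was 89.0 to 111, 113 to 145 and 85.6 to 110 in the same order of strains. HMRA1, the a1 regulator, was above background on 0 of 6, 0 of 6 and 6 of 6 arrays of these strains. The haploid called "the strain labelled a" below therefore carries alpha markers, and results in the mean of strains are given without it where that changes a call. Replicate arrays correlated at Pearson r of 0.993 to 0.996 across genes. RNA integrity was read from the ACT1 controls, whose 3' over 5' ratio was 1.09 to 1.20 at 0% ethanol, 1.11 to 1.23 at 3% and 1.13 to 1.30 at 7%. Both ends of the range rose with ethanol, but the ranges overlapped, and the 1.30 came from replicate 1 of the diploid. A trend of the ratio with ethanol was not tested, nor was its part in the results.

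Signals are linear intensities scaled to the same trimmed mean on each array. Changes are differences of log2(scaled signal + 16), which understates the change of dim genes, and are given with the standard error (SE) of the limma fit over all 18 arrays. A gene rose or fell where the two-sided p, adjusted by Benjamini-Hochberg over 5363 genes, was under 0.05. All 8 genes were above background on 18 of 18 arrays, with a lowest signal of 14.4 times the background limit for HIS6. The 6 probe sets for his genes of another yeast on the same arrays stayed at or under 8.35. Signals are not comparable between genes. Since arrays share one mean, a lower signal is a smaller share of the measured mRNA, and fewer expressing cells and less mRNA per cell cannot be told apart.

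At 7% ethanol all 7 HIS genes fell in the mean of the 3 strains and GCN4 did not pass the test. HIS5, HIS4, HIS3 and HIS7 fell most, by 3.53 to 6.30 times, HIS1 fell 2.36 times, HIS2 1.51 times and HIS6 1.14 times. Genes lower in this comparison made up 22.3% of all genes tested. The median log2 change of the 7 HIS genes was -1.82 against 0.13 for all genes, where -0.71 and 1.11 were the 5th and 95th percentiles. At 3% ethanol the falls were smaller, and 6 members were lower where 17.3% of all genes were. Between 3% and 7% ethanol 6 members were lower, against 18.3% of all genes. The comparisons with 0% share their 6 control arrays, so their values stand side by side and are not independent.

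**Figure D1:**
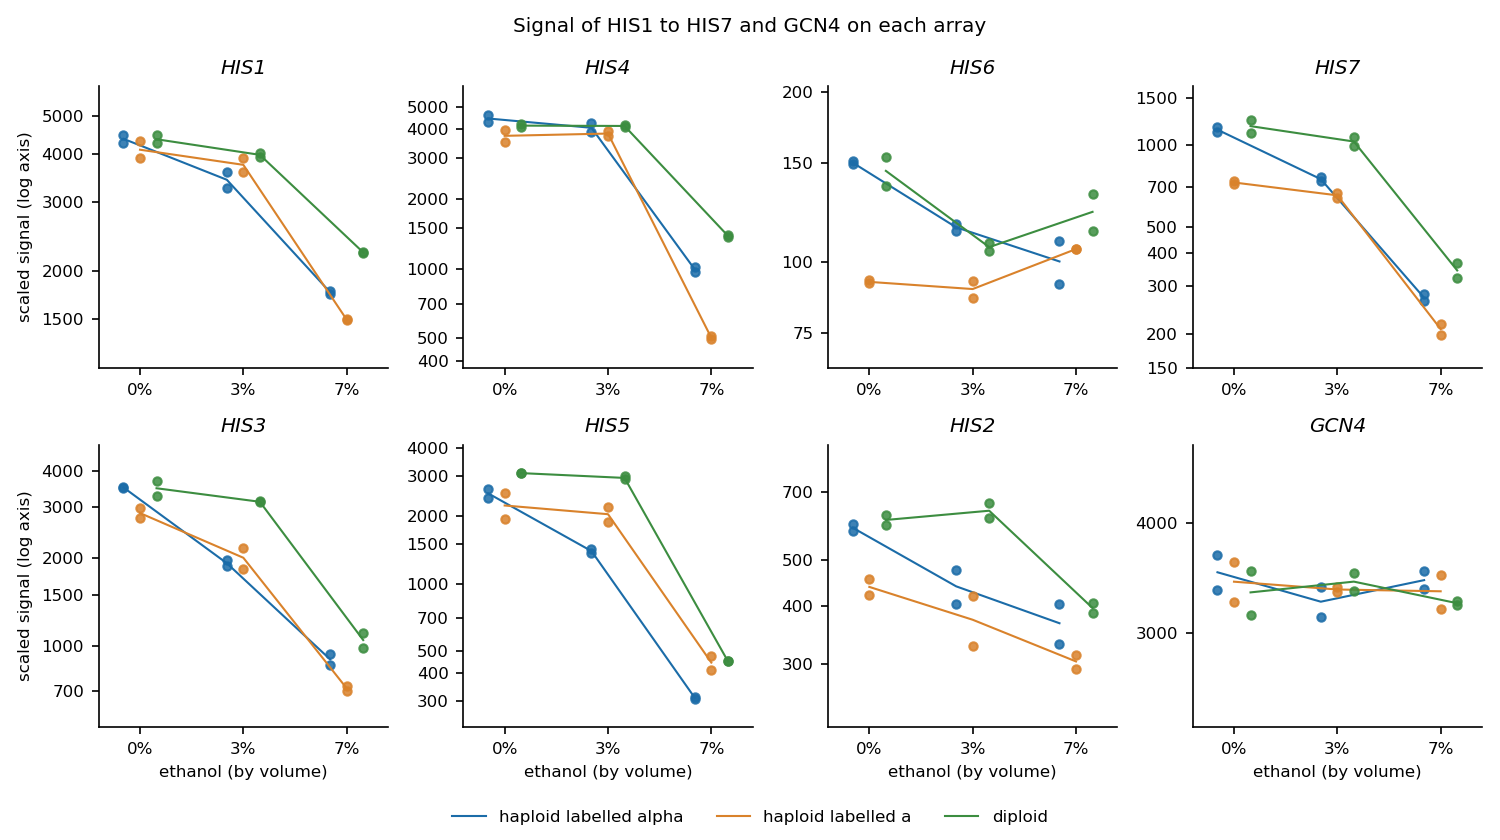
Scaled signal of each gene (log axis, arbitrary units) against ethanol (% by volume), with 1 point per array and lines through the means of 2 arrays per strain. In HIS1, HIS4, HIS7, HIS3 and HIS5 all 6 arrays at 7% lie below all 12 others, while the GCN4 arrays stay between 3132 and 3673.

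HIS1 (YER055C) encodes ATP phosphoribosyltransferase, the first enzyme of the pathway, which histidine inhibits. Its scaled signal in the haploid labelled alpha was 4261 and 4487 at 0% ethanol, 3272 and 3591 at 3%, and 1745 and 1777 at 7%. The strain labelled a gave 4308 and 3893, then 3909 and 3589, then 1497 and 1499. The diploid gave 4262 and 4464, then 3937 and 4018, then 2229 and 2232. Every array at 7% was below every array at 0% or 3%, and within the 7% arrays the 3 strains did not overlap. The log2 change in the mean of strains was -0.20 ± 0.038 (SE) at 3% (limma adjusted p = 0.000221) and -1.24 ± 0.038 at 7% (adjusted p = 1.38e-16). Ranked by mean signal, the 3 groups at 0% and the diploid at 3% overlapped their neighbours, as did the haploids at 3%, so that 4 of the 8 steps between neighbouring groups were clear of the spread.

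HIS4 (YCL030C) encodes a trifunctional enzyme that acts after HIS1 and again at the end, as histidinol dehydrogenase. Its scaled signal in the strain labelled alpha was 4295 and 4622 at 0% ethanol, 3882 and 4245 at 3%, and 964 and 1017 at 7%. On the arrays of the strain labelled a it was 3986 and 3516, then 3750 and 3924, then 509 and 494. In the diploid it was 4207 and 4098, then 4170 and 4107, then 1403 and 1369. The 0% and 3% arrays ran through one another, and the 7% arrays lay far below them in a clear order, diploid above the strain labelled alpha above the strain labelled a. At 3% ethanol HIS4 did not pass the test, with a log2 change of -0.03 and a 95% interval from -0.12 to 0.05 (adjusted p = 0.500). At 7% it fell by 2.19 on the log2 scale (SE 0.040, adjusted p = 6.17e-20), or 4.58 times, and ranked 14 of 5363 from the largest fall. The highest signals of any S. cerevisiae probe set were 5177 to 6324 per array. How linear the signals of HIS1 and HIS4 are this near that upper end at 0% and 3% was not tested. Nor was it tested for HIS3 and GCN4, whose signals reached 3676 and 3673.

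HIS6 (YIL020C), the isomerase of the pathway, was the exception among the enzymes. It gave 149 and 151 at 0% ethanol in the strain labelled alpha, 113 and 117 at 3%, and 91.4 and 109 at 7%. The strain labelled a stayed at 91.7 and 92.7, 92.7 and 86.4, and 105 and 106. The diploid went from 154 and 136 to 108 and 105 and then to 114 and 132. The strain labelled a thus began where the strain labelled alpha ended, and the 7% arrays overlapped those at 0% and 3%. In the mean of strains HIS6 fell at 3%, with a log2 change of -0.26 ± 0.063 (adjusted p = 0.00215), and at 7%, with -0.19 ± 0.063 (adjusted p = 0.0108). Without the strain labelled alpha the 7% change was -0.025 (adjusted p = 0.795), and without the diploid the changes were -0.19 at 3% (adjusted p = 0.0651) and -0.18 at 7% (adjusted p = 0.0604). Its change between 3% and 7%, 0.07 ± 0.063, did not pass the test (adjusted p = 0.374) and was below 0 under quantile normalization (-0.11), median centring (-0.06) and no scaling (-0.02).

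HIS7 (YBR248C) encodes imidazole glycerol phosphate synthase, whose reaction also releases AICAR, an intermediate of purine synthesis. The strain labelled alpha gave 1165 and 1119 at 0% ethanol, 764 and 735 at 3%, and 280 and 264 at 7%. The haploid labelled a gave 721 and 735, then 666 and 639, then 218 and 199. The diploid gave 1243 and 1112, then 1073 and 992, then 366 and 322. The 2 strains other than the one labelled a overlapped at 0%, and the strain labelled a was lowest of the 3 at each ethanol level. In the mean of strains HIS7 fell at 3%, with a log2 change of -0.31 ± 0.050 (adjusted p = 3.78e-05), and at 7%, with -1.82 ± 0.050 (adjusted p = 2.08e-17).

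HIS3 (YOR202W) encodes imidazoleglycerol-phosphate dehydratase. Of its arrays, those of the strain labelled alpha read 3507 and 3493 at 0% ethanol, 1878 and 1969 at 3%, and 863 and 936 at 7%. Those of the strain labelled a read 2740 and 2978, then 2174 and 1842, then 729 and 702. Those of the diploid read 3279 and 3676, then 3136 and 3115, then 1109 and 987. At 3% the diploid lay above both haploids, which overlapped each other, and 6 of the 8 steps in the order of groups were clear of the spread. In the mean of strains HIS3 had the largest fall of the 8 genes at 3%, -0.51 ± 0.048 (adjusted p = 5.49e-08), and at 7% it changed by -1.88 ± 0.048 (adjusted p = 8.29e-18).

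HIS5 (YIL116W) encodes histidinol-phosphate aminotransferase and had the largest fall of the 8 genes at 7%. Its signal in the strain labelled alpha was 2646 and 2396 at 0% ethanol, 1366 and 1426 at 3%, and 307 and 314 at 7%. The values of the strain labelled a were 2520 and 1933, then 2197 and 1876, then 412 and 478. The values of the diploid were 3109 and 3096, then 3000 and 2907, then 453 and 451. The highest group mean, the diploid at 0%, was 10.00 times the lowest, the strain labelled alpha at 7%. The change at 7% was -2.66 ± 0.059 (adjusted p = 1.14e-18), or 6.30 times, and ranked 4 of 5363 from the largest fall. At 3% its change was -0.34 ± 0.059 (adjusted p = 8.32e-05), and without the strain labelled alpha the change was -0.10 (adjusted p = 0.320).

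HIS2 (YFR025C) encodes histidinol-phosphatase. It read 597 and 576 at 0% ethanol in the strain labelled alpha, 475 and 404 at 3%, and 403 and 331 at 7%. It read 422 and 455, then 418 and 328, then 293 and 314 in the strain labelled a. It read 594 and 625, then 661 and 614, then 404 and 386 in the diploid. Within each strain both 7% arrays were below both 0% arrays, but across strains the ethanol levels overlapped. HIS2 fell by 0.59 at 7% (SE 0.065, adjusted p = 7.47e-08). The fall at 3%, -0.19 ± 0.065 (adjusted p = 0.0190), did not pass without the strain labelled alpha (-0.08, adjusted p = 0.378), without the strain labelled a (-0.17, adjusted p = 0.0740), with no scaling (-0.20, adjusted p = 0.0944) or without any 1 of 4 arrays. Those 4 were replicate 2 of the diploid at 3% (-0.17), of the strain labelled a at 0% (-0.17) and at 3% (-0.14), and of the strain labelled alpha at 3% (-0.15).

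GCN4 (YEL009C) gave 3357 and 3673 at 0% ethanol in the strain labelled alpha, 3132 and 3379 at 3%, and 3363 and 3524 at 7%. The strain labelled a gave 3608 and 3251, then 3337 and 3385, then 3494 and 3196. The diploid gave 3524 and 3148, then 3352 and 3509, then 3261 and 3225. All 9 groups overlapped their neighbours in order, and the highest group mean was 1.08 times the lowest. The log2 change of GCN4 was -0.03 at 3% (95% interval -0.12 to 0.06, adjusted p = 0.553) and -0.03 at 7% (95% interval -0.12 to 0.05, adjusted p = 0.486), and at 7% it passed as a fall under median centring (-0.25, adjusted p = 0.000564) and with no scaling (-0.15, adjusted p = 0.0333) but not under quantile normalization (-0.0086). Those alternatives also move other genes: the median change of all genes at 7% was 0.13 as reported, -0.05 under median centring, 0.04 with no scaling and 0.01 under quantile normalization. Over the 19 contrasts of ethanol levels, strains and their differences, GCN4 passed in 0 by limma's adjusted p (0.301 to 0.978) and in 0 at an unadjusted p under 0.05. Under median centring it also passed as a fall at 7% against 3% (-0.15) and at 7% against 0% within the haploid labelled a (-0.40) and within the diploid (-0.26).

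**Figure D2:**
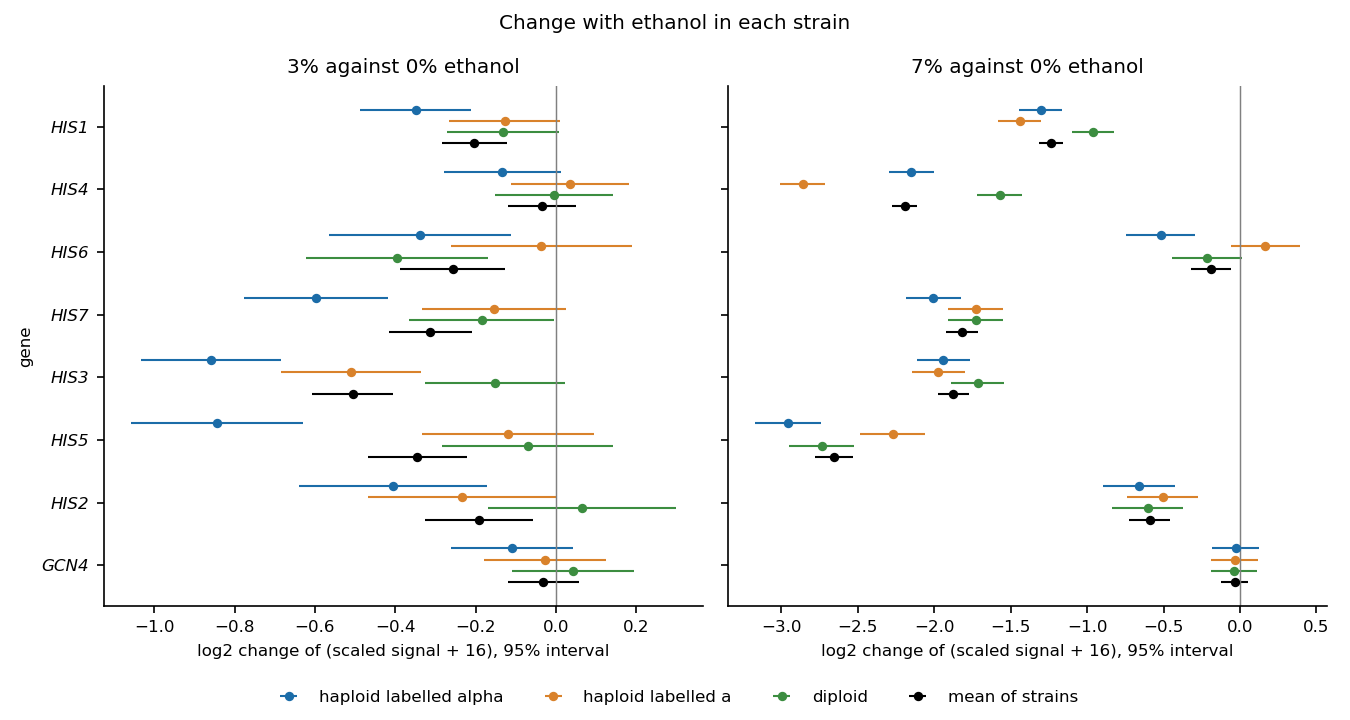
Log2 change of (scaled signal + 16) at 3% (left) and 7% (right) ethanol against 0%, with 95% intervals from the limma fit, for each strain and for the mean of strains. At 7% HIS1, HIS4, HIS7, HIS3, HIS5 and HIS2 lie below 0 in each strain, HIS6 does so only in the strain labelled alpha with an interval that excludes 0, and GCN4 lies at -0.04 to -0.03.

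Within strains, the falls at 7% ethanol were seen in all 3. Lower members numbered 7 in the strain labelled alpha, where 19.9% of all genes were lower. They numbered 6 in the strain labelled a, against 15.1% of all genes, and HIS6 changed by 0.17 ± 0.108 (adjusted p = 0.190). In the diploid 6 were lower, against 20% of all genes, and HIS6 changed by -0.22 ± 0.108 (adjusted p = 0.0963). The median change of all genes was 0.04, 0.26 and 0.12 in these strains, so the falls in the strain labelled a are set against the highest general level. HIS6 in the strain labelled a turned to a fall under quantile normalization (-0.32, adjusted p = 0.0201). In the diploid HIS6 passed as a fall under quantile normalization (-0.43, adjusted p = 0.00308) and under median centring (-0.41, adjusted p = 0.00401).

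At 3% ethanol members were also called within each strain, and unequal counts of calls are not a test between strains. The strain labelled alpha had 6 lower members, against 12.6% of all genes, led by HIS3 at -0.86 ± 0.084, HIS5 at -0.84 ± 0.102 and HIS7 at -0.60 ± 0.086. HIS2 at -0.41, HIS1 at -0.35 and HIS6 at -0.34 fell there too, while HIS4 at -0.13 and GCN4 at -0.11 did not pass. The haploid labelled a had 1 lower member, HIS3 at -0.51 ± 0.084, where 12% of all genes were lower, so the count is near that share. The diploid had 1 lower member, HIS6 at -0.40 ± 0.108, where 7.96% of all genes were, again a count near the share. The HIS6 call in the diploid was lost without replicate 1 at 0% (-0.32, adjusted p = 0.131) and without either replicate at 3% (-0.41 and -0.38). In the strain labelled a the count was 5 under median centring and 2 under quantile normalization. Without replicate 2 of that strain at 0% it was 3, and without its replicate 1 at 3% it was 2. The HIS6 call in the strain labelled alpha was lost without any 1 of its 4 arrays at 0% and 3%, and the HIS2 call without replicate 1 at 0% (-0.38) or replicate 2 at 3% (-0.29). With no scaling neither HIS2 (-0.40, adjusted p = 0.101) nor HIS6 (-0.33, adjusted p = 0.233) passed in that strain.

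The change at 3% was tested between strains as a difference of differences. Between the diploid and the mean of the haploids 2 members differed, where 8.97% of all genes did. HIS3 changed by 0.53 ± 0.102 less downward in the diploid (adjusted p = 0.00181), with -0.15 there against -0.86 and -0.51 in the haploids. HIS5 differed by 0.41 ± 0.125 (adjusted p = 0.0436), a call that was lost when any 1 of 13 arrays was left out, with adjusted p up to 0.151. Between the haploids 3 members differed, where 18.9% of all genes did and the median difference of all genes was 0.12. HIS5 differed by 0.72 ± 0.145 (adjusted p = 0.00212), with group means of 2521 and then 1396 in the strain labelled alpha and 2227 and then 2037 in the other haploid. HIS7 differed by 0.44 ± 0.122 (adjusted p = 0.0166), and without replicate 2 of the strain labelled alpha at 3% by 0.42 (adjusted p = 0.0587). HIS3 differed by 0.35 ± 0.118 (adjusted p = 0.0444), and this call was lost when any 1 of 10 arrays was left out, with adjusted p up to 0.201. Under median centring neither HIS7 (0.24) nor HIS3 (0.14) passed.

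The change at 7% was tested between strains in the same way. The HIS4 change was -1.57 in the diploid, -2.15 in the haploid labelled alpha and -2.86 in the haploid labelled a, with an SE of 0.070 each. The diploid differed from the mean of the haploids by 0.93 ± 0.086 (adjusted p = 5.04e-07), and the haploids differed from each other by -0.71 ± 0.099 (adjusted p = 3.24e-05). The HIS1 change was -0.96 in the diploid against -1.30 and -1.44 in the haploids, a difference of 0.41 ± 0.082 (adjusted p = 0.00313). HIS4 and HIS1 were the 2 members that differed between diploid and haploids, where 9.21% of all genes did. Between the haploids 3 members differed, a count near the share of all genes, of which 37.9% did, with a median difference of 0.21. Besides HIS4 these were HIS5, with 0.68 ± 0.145 (adjusted p = 0.00134), and HIS6, with 0.68 ± 0.153 (adjusted p = 0.00205). The HIS5 change was -2.96 in the haploid labelled alpha and -2.27 in the one labelled a, the opposite order from HIS4. The HIS5 difference did not pass under median centring (0.39, adjusted p = 0.0732), the HIS6 difference under quantile normalization (0.30, adjusted p = 0.195), or the HIS1 difference with no scaling (0.32, adjusted p = 0.220).

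**Figure D3:**
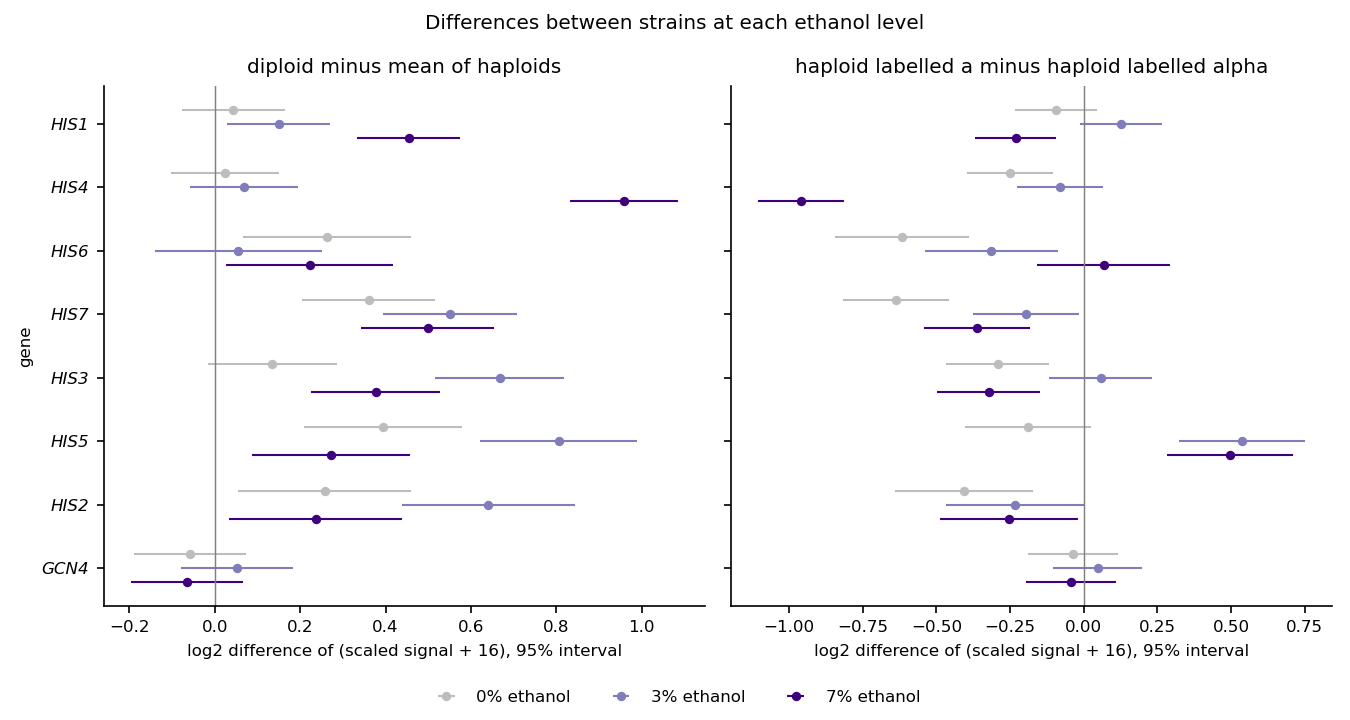
Log2 difference of (scaled signal + 16) between strains at 0%, 3% and 7% ethanol, with 95% intervals from the limma fit: the diploid minus the mean of the haploids (left) and the strain labelled a minus the strain labelled alpha (right). HIS4 stands at 0.96 and -0.96 at 7%, HIS5 between the haploids stands at 0.54 at 3% and at -0.19 at 0%, where it did not pass, and GCN4 stays near 0.

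Compared directly with the mean of the haploids at one ethanol level, the diploid had 2, 4 and 5 higher members at 0%, 3% and 7%. At 0%, the 2 members were HIS5, higher by 0.39 ± 0.089, and HIS7, by 0.36 ± 0.075, where 7.42% of all genes were higher. The HIS7 call was lost without replicate 1 of the diploid at 0% (0.28, adjusted p = 0.0635). At 3%, 4 members were higher, where 13.2% of all genes were: HIS5 by 0.80 ± 0.089, HIS3 by 0.67 ± 0.072, HIS2 by 0.64 ± 0.097 and HIS7 by 0.55 ± 0.075. At 7%, 5 members were higher, where 8.6% of all genes were. They were led by HIS4 at 0.96 ± 0.061 (adjusted p = 1.75e-10), followed by HIS7 at 0.50, HIS1 at 0.45 and HIS3 at 0.38, and the last, HIS5 at 0.27 (adjusted p = 0.0325), was lost when any 1 of 5 arrays was left out. GCN4 differed by -0.06 at 0%, 0.05 at 3% and -0.06 at 7%, with adjusted p from 0.496 to 0.590. Both haploids bear the alpha markers given above.

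The haploids were also compared directly, as the strain labelled a against the strain labelled alpha. At 0%, 5 members were lower, where 34.7% of all genes were and the median difference of all genes was -0.13. HIS7 at -0.64 ± 0.086 and HIS6 at -0.62 ± 0.108 were lowest, followed by HIS2 at -0.41, HIS3 at -0.29 and HIS4 at -0.25, while HIS5 at -0.19 (adjusted p = 0.131) and HIS1 at -0.09 did not pass. Without replicate 1 of the strain labelled a at 0% the HIS5 difference was -0.38 (adjusted p = 0.00610), and without its replicate 2 it was 0.0011. Under median centring HIS3 (-0.14) and HIS4 (-0.10) did not pass. With no scaling HIS2 (-0.28, adjusted p = 0.198), HIS3 (-0.16, adjusted p = 0.346) and HIS4 (-0.12, adjusted p = 0.468) did not. HIS3 did not pass without replicate 1 of the strain labelled a (-0.23), and HIS4 did not pass without its replicate 2 (-0.16) or without replicate 2 of the strain labelled alpha (-0.20). At 3%, HIS5 was higher, with a difference of 0.54 ± 0.102, and HIS6 lower, with -0.31 ± 0.108, where 36.7% of all genes differed in either direction. With 2 of the 8 members called, the members did not exceed that share. The HIS6 difference was lost without replicate 2 of the strain labelled a (-0.27) or without replicate 1 (-0.33) or 2 (-0.29) of the strain labelled alpha at 3%. It was also lost with no scaling (-0.21). At 7%, HIS4 (-0.96 ± 0.070, adjusted p = 9.61e-10), HIS7 (-0.36), HIS3 (-0.32) and HIS1 (-0.23) were lower, where 17.2% of all genes were lower. HIS5 was higher by 0.50 ± 0.102 (adjusted p = 0.000549), where 28.7% of all genes were, and HIS2 (-0.25, adjusted p = 0.0721) and HIS6 (0.07) did not pass. Without replicate 2 of the strain labelled alpha at 7%, HIS1 (-0.22, adjusted p = 0.0506) and HIS3 (-0.26, adjusted p = 0.0529) did not pass, and with no scaling HIS7 (-0.15), HIS3 (-0.11) and HIS1 (-0.01) did not.

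Over the 9 group means, HIS1, HIS3, HIS4, HIS5 and HIS7 had Pearson r of 0.91 to 0.98 with one another. HIS2 had r of 0.76 to 0.89 with these 5 genes, HIS6 had r of 0.23 to 0.59 with the other HIS genes, and GCN4 had r of -0.02 to 0.37 with the 7 HIS genes. These points share arrays and the ethanol levels. Of 5355 other genes, 152 (2.84%) had r of at least 0.9 with the mean standardized profile of the HIS genes, and the median r was -0.29. The 5 most alike were FCY2, the purine and cytosine permease (r = 0.983), MET22, a nucleotidase needed for methionine synthesis (r = 0.979), LYS1 of lysine synthesis (r = 0.978), GLN3, an activator of nitrogen use genes (r = 0.977), and TRP3 of tryptophan synthesis (r = 0.975). At 7% ethanol all 5 fell, with log2 changes of -0.82, -0.75, -2.02, -1.11 and -1.37. The genes most like GCN4 were PBP4 (r = 0.903), SAP1 (r = 0.770) and HXT13 (r = 0.762). Whether the HXT13 probe set also reads related genes was not tested. Each GCN4 group mean overlapped its neighbours within the replicates, as given above.

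FCY2 is also the gene next to HIS1 in the RefSeq annotation, an observation made after its values were seen. The 16 protein-coding neighbours of the 8 genes were therefore listed, of which 14 were tested. At 7% ethanol 3 fell (FCY2 beside HIS1, LSB3 beside HIS2 and ARO4 beside HIS7), 7 rose and 4 did not pass the test, shares near those of all genes (22.3% lower and 48.3% higher). RRP7 beside HIS4 rose by 0.71 ± 0.089, PRM5 beside HIS5 rose by 0.59 ± 0.062, and MRM1 and DED1 on the sides of HIS3 stood at -0.05 and -0.08.

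Most of a chosen list of amino acid genes that Gcn4 activates fell at 7% ethanol beside the HIS genes. The list was chosen with earlier results of these data known. Of 35 such genes outside histidine measured, 32 fell and 1 rose, with a median of -0.72. Of all genes 22.3% fell and 48.3% rose, with a median of 0.13. Among them were LYS1 at -2.02 ± 0.049, TRP4 of tryptophan synthesis at -2.01 ± 0.056, the asparagine synthetase gene ASN1 at -1.27 ± 0.038 and ARG4 of arginine synthesis at -1.12 ± 0.032. CPA1, a carbamoyl phosphate synthetase subunit of the arginine route, rose by 0.24 ± 0.044, and its change was -0.024 (adjusted p = 0.677) without the strain labelled a, 0.03 under median centring and 0.13 with no scaling. At 3% ethanol 23 fell and 6 rose, with a median of -0.18, where 17.3% of all genes fell and 32% rose. The rises at 3%, named outside the naming rule except for CPA1, were ARG3 at 1.05 ± 0.046, CPA1 at 0.39, LYS21 at 0.37, ARG8 at 0.28, LYS20 at 0.26 and ILV2 at 0.12. Between 3% and 7% all 35 fell, with a median of -0.47, where 18.3% of all genes fell. ARG5,6 has no probe set under that name and was not analysed here.

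**Figure D4:**
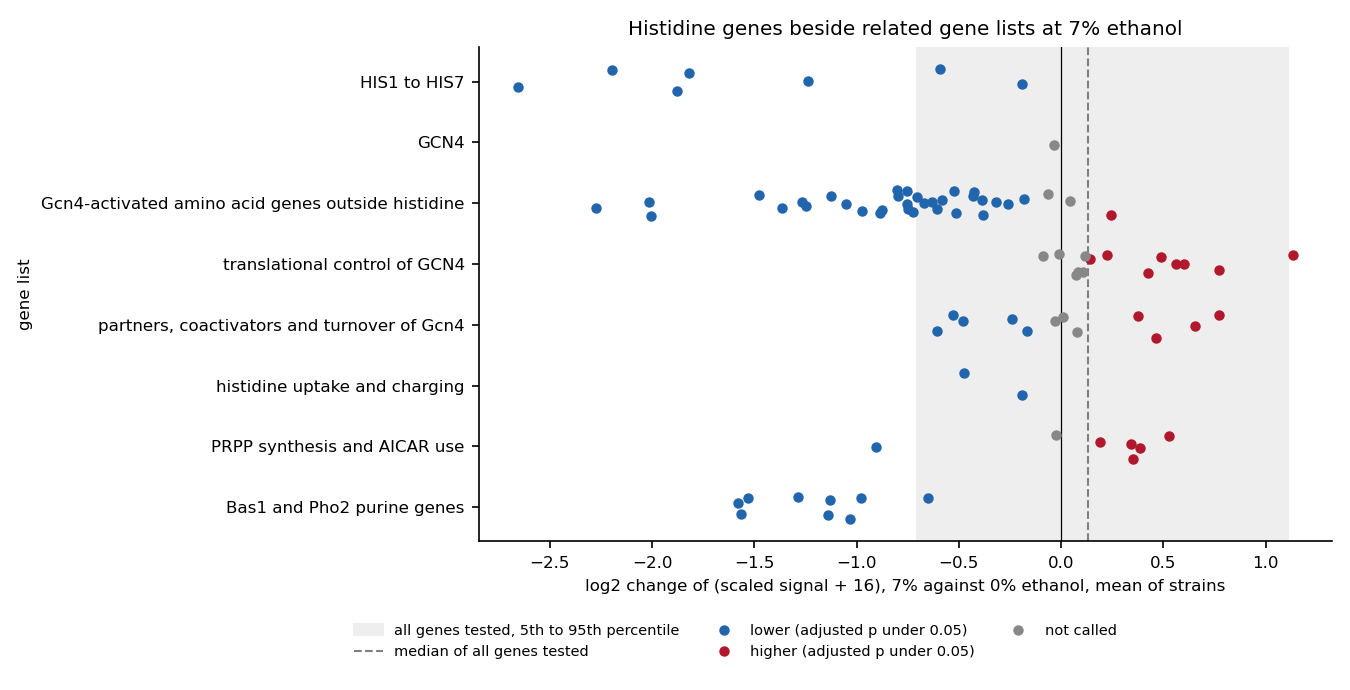
Log2 change of (scaled signal + 16) at 7% against 0% ethanol in the mean of strains, 1 point per gene, for the HIS genes, GCN4 and 6 related lists. Points are blue where lower, red where higher and grey where the adjusted p was 0.05 or more, and the band spans -0.71 to 1.11, the 5th to 95th percentile of all 5363 genes.

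Of 14 genes that control GCN4 translation, 8 rose at 7% ethanol and 0 fell by limma's adjusted p (also 0 at an unadjusted p under 0.05), with a median of 0.18 against 0.13 for all genes, where 48.3% of all genes rose, so the count is near the share of all genes. Under median centring 2 of the 14 were lower, and with no scaling 1 was. The largest rises were in GCD14 (1.13 ± 0.092) and GCD10 (0.77 ± 0.056), the subunits of a tRNA methyltransferase, and in GCD6 (0.60 ± 0.070) and GCD2 (0.56 ± 0.063), subunits of the initiation factor eIF2B. Among the genes that did not pass, named outside the naming rule and after their values were seen, were the kinase gene GCN2 (0.07 ± 0.089, adjusted p = 0.488), its partners GCN1 (0.08) and GCN20 (-0.01), and the eIF2 subunit genes SUI2 (0.11) and SUI3 (-0.09). GCD11, also an eIF2 subunit gene and also named outside that rule, was among the 8 that rose (0.22 ± 0.047, limma adjusted p = 0.000255).

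Of 12 genes for partners, coactivators and turnover of Gcn4, 4 rose and 5 fell at 7% ethanol, where 48.3% of all genes rose and 22.3% fell. The rises were CDC34, a ubiquitin-conjugating enzyme of Gcn4 breakdown (0.77 ± 0.060), ADA2 (0.66) and NGG1 (0.37) of the SAGA coactivator, and the kinase gene SSN3 (0.46). The falls were PCL5, a Pho85 cyclin that directs Gcn4 breakdown (-0.60 ± 0.067), MBF1, which bridges Gcn4 to the TATA-binding protein (-0.53 ± 0.051), the SAGA acetyltransferase gene GCN5 (-0.48), PHO85 (-0.24) and BAS1 (-0.17). NGG1 did not pass under median centring (0.20), under quantile normalization (0.06) or without the strain labelled a (0.15). BAS1 had an adjusted p of 0.0285 and was lost without any 1 of 6 arrays, with adjusted p up to 0.0985. PHO2 (0.08), CDC4 (-0.03) and ASC1 (0.01) did not pass, and PHO2 under quantile normalization (-0.22, adjusted p = 0.00604) and ASC1 under median centring (-0.21, adjusted p = 0.00352) turned to falls.

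Histidine enters the cell through the permease Hip1 and is charged onto tRNA by the synthetase Hts1. Both genes fell at 7% ethanol, with HIP1 at -0.47 ± 0.057 and HTS1 at -0.19 ± 0.051, and without the strain labelled alpha the HTS1 change was -0.14 (adjusted p = 0.0646). HIP1 also fell at 3% (-0.26 ± 0.057). Of the 7 genes that make PRPP or use AICAR, 5 rose and 1 fell at 7%, beside the same 48.3% and 22.3% of all genes. The PRPP synthetase genes PRS2 (0.53 ± 0.050), PRS3 (0.38), PRS4 (0.35) and PRS1 (0.34) rose and PRS5 (-0.02) did not pass. The AICAR transformylase genes split, with ADE17 lower (-0.90 ± 0.041) and ADE16 higher (0.19 ± 0.050), but the ADE16 call was lost without the strain labelled a (0.089, adjusted p = 0.197), with no scaling (0.077, adjusted p = 0.470) and under median centring (-0.027, adjusted p = 0.638).

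All 9 measured purine genes under Bas1 and Pho2 fell at 7% ethanol, with a median of -1.14. Of all genes 22.3% fell there, with a median of 0.13. The changes were -1.58 ± 0.046 for ADE4, the first enzyme of the route, -1.57 ± 0.054 for ADE8, -1.53 ± 0.038 for ADE2 and -1.29 ± 0.037 for ADE1, and the smallest was that of ADE12 (-0.65 ± 0.048). All 9 fell in each of the 3 strains, and the diploid's median was -0.90, against -1.25 and -1.51 for the haploids labelled alpha and a. In the same order of strains 20%, 19.9% and 15.1% of all genes fell, with medians of 0.12, 0.04 and 0.26. The difference of the purine medians between strains was not tested. At 3% ethanol 7 of the 9 fell, where 17.3% of all genes did, with a median of -0.13, and with no scaling 4 did. ADE5,7 has no probe set under that name and was not analysed here.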

How the data were processed

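The deposited values are one linear intensity per probe set and array, made by the authors with the Affymetrix GCOS software, per the submitters' processing notes. No source used here gives the GCOS version, its settings or a scaling target. Arrays were scaled by factors of 0.840 to 1.19 to equal 2% trimmed means over the probe sets for S. cerevisiae, and 16 was added before log2. Background was the 95th percentile of 1746 probe sets for another yeast (4.60 to 7.58), and a gene entered when above it on at least 2 arrays. Of several probe sets of a gene the brightest was used. The number of arrays limits the precision.

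limma 3.58.1 in R 4.3.3 fitted 9 group means (eBayes with trend, 9 residual degrees of freedom). The fit was tested on simulated data first. Contrasts were ethanol levels in the mean of strains and within strains, strains within levels, and their differences. Gene names come from the platform annotation and RefSeq R64. The other genes named are, per list, up to 4 with the smallest adjusted p at 7% ethanol and those called against the majority, with exceptions marked in the text. Lists of up to 12 are named freely, as are the genes most alike over group means. The members, lists and tests were chosen with earlier results of these data known.

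Replicate numbers are shared by the groups. Over 36 pairs of groups the deviations of equal numbers correlated at -0.25 to 0.18, above 0.1 in 11, so the numbers were not taken as pairing the samples. Alternatives were other pseudocounts, filters, scalings, fits and left-out arrays or strains.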

Additional observations from a re-analysis of the deposited data

Results flagged for a closer look

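The ethanol change of 6 of the 8 members, all HIS genes, differed between strains in at least 1 of 4 tests of that difference. Each was a limma contrast of log2 changes adjusted over all genes. Of all genes, 8.97% and 18.9% passed at 3% (diploid, then haploids) and 9.21% and 37.9% at 7%, and 3 of 8 members in the last is near its share. The share of all genes passing in at least 1 of the 4 was not counted and cannot be under 37.9%. The 6 of 8 therefore has no matching share beside it. At 3% ethanol the diploid minus the mean of the haploids was 0.53 for HIS3 (adjusted p = 0.00181, with both diploid arrays at 3% above all 4 haploid arrays) and 0.41 for HIS5 (adjusted p = 0.0436, lost when any 1 of 13 arrays was left out). The order of arrays is one of levels, not of changes. At 0% both diploid HIS3 arrays (3279 and 3676) already lay above both of the strain labelled a (2740 and 2978). At 3% the strain labelled a minus the strain labelled alpha was 0.72 for HIS5 (adjusted p = 0.00212), 0.44 for HIS7 (adjusted p = 0.0166) and 0.35 for HIS3 (adjusted p = 0.0444, lost when any 1 of 10 arrays was left out). At 7% the diploid minus the mean of the haploids was 0.93 for HIS4 (adjusted p = 5.04e-07) and 0.41 for HIS1 (adjusted p = 0.00313), with both diploid arrays at 7% above all 4 haploid arrays for each gene. For HIS4 both diploid arrays already lay above both of the strain labelled a at 0%. At 7% the strain labelled a minus the strain labelled alpha was -0.71 for HIS4 (adjusted p = 3.24e-05), 0.68 for HIS5 (adjusted p = 0.00134) and 0.68 for HIS6 (adjusted p = 0.00205). HIS2 and GCN4 passed in none of these 4 limma contrasts, with adjusted p of 0.0909 to 0.950 for HIS2 and 0.501 to 0.978 for GCN4.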

How the results depend on the processing

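The counts of lower members at 7% against 0% and 7% against 3% ethanol in the mean of strains stayed at 7 and 6 without any 1 array, and other counts ranged as follows. Lower members at 3% were 5 to 6 in the mean of strains, 4 to 6 in the strain labelled alpha, 1 to 3 in the strain labelled a and 0 to 1 in the diploid. Members differing between diploid and haploids were 1 to 3 at 0%, 4 to 5 at 3% and 4 to 5 at 7%, and between the haploids 4 to 5, 1 to 3 and 4 to 6. Differences of ethanol changes were 1 to 3 and 1 to 3 at 3%, and 2 and 3 at 7%. With no scaling the counts were 0 for the diploid at 3%, 2, 1 and 2 between the haploids at 0%, 3% and 7%, and 1, 1 and 1 for the differences of changes at 3% (diploid, then haploids) and at 7% (diploid). Median centring gave 5 lower in the strain labelled a at 3%, 4 for the diploid at 0%, 3 and 4 between the haploids at 0% and 3%, and 1 for the haploid difference at 3%. Quantile normalization gave 2 lower in the strain labelled a at 3%, 5 between the haploids at 3% and 1 for the diploid difference at 3%, as did eBayes without trend for the last. Reversed were HIS6 in the strain labelled a (-0.32, quantile), CPA1 (-0.024, without the strain labelled a), PHO2 (-0.22, quantile), ASC1 (-0.21, median centring) and ADE16 (-0.027, median centring). The causes were not tested. Of all genes at 7%, 2592 were higher and 1196 lower as reported, 1918 and 1792 under quantile normalization, 1694 and 2153 under median centring and 1869 and 1369 with no scaling. At 3% the split was 1716 and 929, and 1276 and 1181, 1257 and 1298, 1168 and 644 in the same order. Between 3% and 7% it was 2038 and 982, and 1539 and 1449, 1244 and 1783, 1154 and 1152. Lower genes in single strains numbered 811 at 7% and 645 at 3% in the strain labelled a, and 1071 at 7% and 427 at 3% in the diploid. Median centring gave 1888, 1313 and 1698 for the first 3 of these, quantile normalization gave 1374 for the first, and no scaling gave 352 at 3% in the strain labelled a, 172 in the diploid and 350 against 675 in the strain labelled alpha. In each of the 10 contrasts between strains or of changes, no scaling lowered the higher or the lower genes by over 1.5 times, as from 461 to 157 higher in the diploid at 7% and from 923 to 193 lower between the haploids at 7%. Of the lists, the 1 riser among Gcn4-activated genes at 7% was 0 under median centring and no scaling, and the 1 faller among PRPP and AICAR genes was 2 under median centring. Of 4112 recomputed changes of members, 3891 kept direction and side of the threshold. With the replicate number as a block, HIS3 lost its haploid difference at 3% (0.35, adjusted p = 0.0509), and HIS7 gained that at 7% (0.28, adjusted p = 0.0460) and the haploid contrast at 3% (-0.19, adjusted p = 0.0480). The length of a promoter motif was not varied, since promoters were not analysed here.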
